A study of Mus musculus with 2 samples.

Results

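The genes described are 10 transcription factors and regulators of the NF-κB pathway, chosen by name. The factors are *Nfkb1*, *Nfkb2*, *Rel*, *Rela* and *Relb*. The others are the IκB family genes *Nfkbia*, *Nfkbid*, *Nfkbie* and *Bcl3*, and the gene of the ubiquitin-editing enzyme A20, *Tnfaip3*. All 10 were found among the 32285 genes of both count matrices. Transcripts were counted in single cells sorted for TCRβ, a chain of the αβ T cell receptor, and pooled from spleen and from cervical and inguinal lymph nodes of a *Foxp3Cre* WT and a DKO-severe animal (1 mouse each), both 14 weeks old. The DKO-severe mouse carried *Foxp3-Cre* and floxed alleles of *Tet2* and *Tet3*, and the word severe stands for advanced disease as the study graded it. The WT mouse carried the same Cre without the floxed alleles. Because *Foxp3* drives the Cre, deletion is directed to cells that express or have expressed *Foxp3*, the defining factor of regulatory T (Treg) cells. This Cre is known to be active at times in other cells too, so which cells of the other gates carry the deletion is not known here. Cells of both mice were labelled with antibody hashtags and shared 1 mRNA library. With 1 mouse per genotype there was no test between genotypes, and every interval covers counting error only, not the spread between mice.

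NF-κB factors act as dimers of 5 subunits. In the canonical arm, *Nfkb1* (p105, the precursor of p50), *Rela* (p65) and *Rel* (c-Rel) are held in the cytoplasm by IκB proteins until the IκB kinase (IKK) marks these for destruction, for instance after engagement of the T cell receptor. In the non-canonical arm, receptors of the TNF receptor family stabilise the kinase NIK (*Map3k14*), and *Nfkb2* (p100, the precursor of p52) is processed to pair with *Relb*. *Nfkbia* (IκBα) and *Nfkbie* (IκBε) are classical cytoplasmic inhibitors. *Nfkbid* (IκBNS) and *Bcl3* are atypical IκB proteins that act in the nucleus. *Tnfaip3* restrains signalling upstream of IKK. Several genes of inhibitors, such as *Nfkbia* and *Tnfaip3*, are themselves textbook NF-κB targets, which gives the pathway negative feedback.

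The DNA sequence that NF-κB dimers bind, the κB consensus, was looked for in RefSeq promoters (build GRCm38.p6, 250 bases before to 50 after each annotated start, both strands). It was present in 2779 of 32851 promoters (8.46%), corresponding to 2581 of 27025 genes (9.55%). Of the members, 8 had a promoter in that table, and 7 of these held a match: *Bcl3*, *Nfkb2*, *Nfkbia*, *Nfkbid*, *Nfkbie*, *Rel* and *Tnfaip3*. The promoter of *Rela* held none, and *Nfkb1* and *Relb* had no entry. One match from each of 6 members is shown because NF-κB dimers are known to bind such letters, and the genes belong to the family itself. The sequences run 5′ to 3′ on the strand of the gene, and capitals mark the letters of the consensus (for *Nfkbia* and *Tnfaip3* the consensus was read on the opposite strand).
Rel: taagcagcGGGAAATCCCcccccctc
Nfkb2: atcgtcacGGGAATTCCCcccctcgg
Nfkbia: actggcttGGAAATTCCCcgcgcctg
Nfkbid: cccgccctGGGACTTCCCagagcacc
Nfkbie: agcaaacaGGGGGATTCCggaggggc
Tnfaip3: tttccatcGGAAATCCCCctgttggc
These windows lie at chr11:23771044-23771069 on the minus strand for *Rel* (the match starts 92 bases before the start site), chr19:46304690-46304715 on the plus strand for *Nfkb2* (39 bases before), and chr12:55492659-55492684 on the minus strand for *Nfkbia* (29 bases before). Those of the other inhibitors lie at chr7:30422172-30422197 on the plus strand for *Nfkbid* (226 bases before), chr17:45555586-45555611 on the plus strand for *Nfkbie* (106 bases before) and chr10:19015405-19015430 on the minus strand for *Tnfaip3* (12 bases before). A match is a description of these letters and not evidence of binding.

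After filters on cell quality and doublets, 6583 WT and 6359 DKO-severe cells remained, with a median of 5616 and 8066 UMIs (unique molecular identifiers, each a captured transcript molecule). The matrices shared 0 barcodes. Cells were gated by transcripts: Cd4 Foxp3-negative (a *Cd3* and a *Cd4* UMI, none of *Cd8a*, *Cd8b1* and *Foxp3*; 1675 WT and 2407 DKO-severe cells), Foxp3-positive (the same with a *Foxp3* UMI; 64 and 331), Cd8 (3052 and 1735) and B (2 or more B lineage markers and no *Cd3* UMI; 15 and 216). A cell without a *Foxp3* UMI can still be a Treg cell, and the *Foxp3*-negative gate held the summed Treg markers at 569 CPM in WT cells, against 1492 CPM in DKO-severe cells (CPM, UMIs per 1000000 UMIs of the gate). All 6 T cell markers (*Cd3d*, *Cd3e*, *Cd3g*, *Trac*, *Trbc1* and *Trbc2*) were detected in each T cell gate of both genotypes, and the 6 B lineage markers of the B gate summed to 5357 CPM in the WT and 8406 CPM in the DKO-severe mouse. Transcripts of *Tet2* and *Tet3* in Foxp3-positive cells were at 56.6 and 89.3 CPM in WT and at 71.6 and 85.2 CPM in DKO-severe cells. Reads of a 3′ kit need not fall in the floxed exons, so these levels do not check the deletion. Markers of other lineages were also higher in the DKO-severe gates: the summed 6 granulocyte markers stood at 85.2 and 2832 CPM in WT and DKO-severe Cd4 Foxp3-negative cells, at 76.2 and 3818 CPM in Foxp3-positive cells and at 78.0 and 1408 CPM in Cd8 cells. The summed 6 monocyte markers stood at 139 and 662 CPM in Cd4 Foxp3-negative cells, with every one of the 6 detected in both genotypes.

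The clearest genotype difference in the family lay in Cd4 Foxp3-negative cells, in *Nfkb1*. The gene lies at chr3:135584655-135691547 on the minus strand (mm10) and overlaps *Gm43430* on the same strand, so that reads may be shared between them. It was at 211 CPM (2062 UMIs) in WT cells, against 392 CPM (9103 UMIs) in DKO-severe cells, a log2 ratio of 0.89 (95% interval 0.82 to 0.96). In the same gate 5 of the 10 members were 1.5-fold or more higher in DKO-severe cells and 0 were lower by that size, where 15.9% of all 6301 genes past a mean of 20 CPM were higher and 7.09% were lower. All 10 members passed that filter. Their median log2 ratio was 0.50, against 0.10 over all genes past the filter. The 5 higher members were *Nfkb1*, both genes of the non-canonical arm (*Nfkb2* and *Relb*) and the IκB family genes *Nfkbie* and *Bcl3*.

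Among the factors, *Nfkb2* was at 15.7 CPM in WT Cd4 Foxp3-negative cells, against 28.4 CPM in DKO-severe cells, a log2 ratio of 0.85 (0.59 to 1.11). Its partner *Relb* was at 39.6 and 62.4 CPM, with a log2 ratio of 0.66 (0.49 to 0.82). The canonical partners differed less. *Rel*, the subunit best known from activated lymphocytes, was at 97.4 and 123 CPM (log2 ratio 0.33, 0.23 to 0.44), and *Rela*, the broadly expressed transactivating subunit, was at 37.8 and 44.8 CPM (0.24, 0.07 to 0.42). Relative to all UMIs, all 5 factors were thus higher in DKO-severe cells beyond counting error, but *Rel* and *Rela* stayed under 1.5-fold. The lower bound of *Rela* lay under the median of all genes past the filter (0.10). With immunoglobulin, haemoglobin, mitochondrial and ribosomal protein genes left out of the total, *Rel* was at 0.18 and *Rela* at 0.09. The difference in *Rela* thus depended on the total used.

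The IκB family genes and *Tnfaip3* did not share 1 direction in that gate. *Bcl3* was at 18.4 CPM (180 UMIs) in WT cells, against 36.9 CPM (857 UMIs) in DKO-severe cells, a log2 ratio of 1.00 (0.77 to 1.24) and the highest of the 10. *Nfkbie* was at 16.8 and 28.4 CPM (0.76, 0.51 to 1.01). *Nfkbia*, the main feedback inhibitor, was at 199 and 250.3 CPM (0.33, 0.26 to 0.41). *Nfkbid* was at 26.3 and 24.7 CPM, and its log2 ratio of -0.09 had an interval from -0.30 to 0.13. *Tnfaip3* was the one member that was lower beyond counting error: it was at 93.6 CPM (915 UMIs) in WT cells, against 70.0 CPM (1628 UMIs) in DKO-severe cells, a log2 ratio of -0.42 (-0.54 to -0.30). The same gate, summed over its cells, thus held more transcript of 3 IκB proteins and less of A20, each relative to all UMIs.

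**Figure D1:**
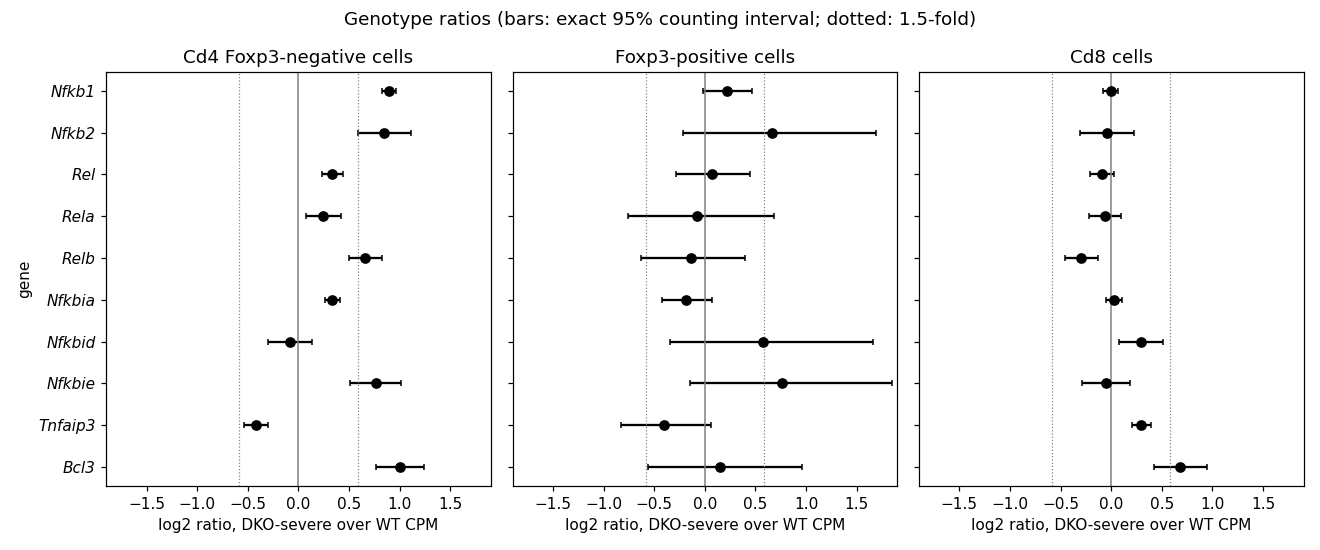
Log2 ratio of DKO-severe over WT CPM (x axis) for each of the 10 genes (y axis) in the 3 T cell gates. Points are ratios of summed UMIs, bars are exact 95% counting intervals and dotted lines mark 1.5-fold. In Cd4 Foxp3-negative cells 8 intervals lie above 0 and that of *Tnfaip3* below it, in Foxp3-positive cells every interval includes 0, and in Cd8 cells 3 intervals (*Nfkbid*, *Tnfaip3* and *Bcl3*) lie above 0 and that of *Relb* below it.

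These differences stood beside the markers of other lineages given above. Cells with UMIs of 2 or more B lineage, monocyte or granulocyte markers made up 22.0% of the WT and 49.0% of the DKO-severe Cd4 Foxp3-negative gate. Without them, the log2 ratio of *Nfkb1* was 0.85, that of *Nfkb2* 0.75 and that of *Nfkbie* 0.81. *Bcl3* was then at 0.73 and *Tnfaip3* at -0.26, both closer to 0 than in the whole gate, and *Relb* at 0.58 fell just under the 1.5-fold line, which left 4 members higher and 0 lower. The shares of all genes past 1.5-fold without these cells are not given here.

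In Cd8 cells the family differed little between genotypes. *Nfkb1* was at 160.4 CPM (3367 UMIs) in WT cells, against 160.0 CPM (2644 UMIs) in DKO-severe cells, a log2 ratio of 0.00 (-0.08 to 0.07). Of the 10 members 6 passed the filter, and 0 were past 1.5-fold in either direction, where 3.78% of 5848 genes were higher and 2.58% were lower. The median log2 ratio over the 10 members was -0.02, against -0.01 over all genes past the filter. *Tnfaip3* ran the other way from Cd4 Foxp3-negative cells, at 86.4 CPM in WT cells, against 106 CPM in DKO-severe cells (log2 ratio 0.30, 0.20 to 0.39). *Relb* was at 38.8 and 31.6 CPM (-0.29, -0.46 to -0.13). *Bcl3*, under the filter at 10.3 and 16.5 CPM, had a log2 ratio of 0.68 (0.42 to 0.95), and *Nfkbid* one of 0.30 (0.08 to 0.51). *Bcl3* was therefore the one member with an interval above 0 and a ratio past 1.5-fold in both Cd4 Foxp3-negative and Cd8 cells, though under the filter in the latter (216 and 273 UMIs). Over other settings its Cd8 ratio ran from 0.49 (5 CPM added to both levels) to 0.81 (equal weight per cell), on both sides of 1.5-fold. In Cd8 cells with a *Lef1* or *Ccr7* UMI it was 0.55 (0.27 to 0.83), under 1.5-fold. In those with neither it was 1.20 (-0.13 to 2.88) on 5 WT UMIs.

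In Foxp3-positive cells, where the Cre is expressed, no member's interval excluded 0. The 2 sides of this gate were unlike, with a median of 5382.5 UMIs per cell in WT and 11545 in DKO-severe cells. Cells with UMIs of 2 or more markers of other lineages made up 25.0% and 65.0% of it. *Nfkb1* was at 340 CPM (156 UMIs) in WT cells, against 395 CPM (1863 UMIs) in DKO-severe cells, a log2 ratio of 0.22 (-0.02 to 0.46), and *Nfkbia* was at 333 and 294 CPM (-0.18, -0.42 to 0.07). By fold alone 2 members were higher and 0 lower, where 19% of 6488 genes were higher and 14.4% were lower, a high share in both directions. Those 2, *Nfkb2* (0.66, -0.21 to 1.69) and *Nfkbie* (0.77, -0.15 to 1.85), rest on 11 and 10 WT UMIs. *Tnfaip3* was at 107 and 80.9 CPM (-0.40, -0.83 to 0.06). The upper bounds of *Nfkb1* (0.46), *Relb* (0.39) and *Bcl3* (0.96) lay under the ratios of these genes in Cd4 Foxp3-negative cells, and those of *Nfkb2* and *Nfkbie* did not. For *Nfkb1* this depended on the gate: its ratio in Foxp3-positive cells ran from -0.02 with thinned cells to 0.93 with gates of 2 or more UMIs, the latter above its ratio in Cd4 Foxp3-negative cells. Without the cells with markers of other lineages, *Nfkbid* was at 1.30, *Nfkb2* at 1.18, *Rel* at 0.32 and *Nfkbia* at -0.06 in Foxp3-positive cells. The difference between the gates was not tested.

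In B-gated cells the WT side held 15 cells and 120031 UMIs, and these also held summed monocyte markers at 3224 CPM against 258 CPM in the DKO-severe B gate, so WT values are given as counts. *Nfkb1* had 21 UMIs, *Rel* and *Nfkbia* 19 each, *Nfkb2* 9, *Rela* 7, *Relb* and *Nfkbid* 5 each, and *Nfkbie*, *Tnfaip3* and *Bcl3* 2 each. The sort was for TCRβ+ cells, and the B gate is what the sort left. The 216 DKO-severe cells gave firmer levels, and they differed from Cd8 cells of the same mouse. *Rel*, which B cells are known to express highly, was at 284 CPM in them, 2.18 above DKO-severe Cd8 cells on the log2 scale (lower bound 2.01). *Nfkbie* was 1.60 and *Nfkb2* 1.48 above Cd8 cells. *Tnfaip3* was at 28.2 CPM, a log2 difference of -1.92 from Cd8 cells, and *Rela* at 33.5 CPM was at -0.07.

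**Figure D2:**
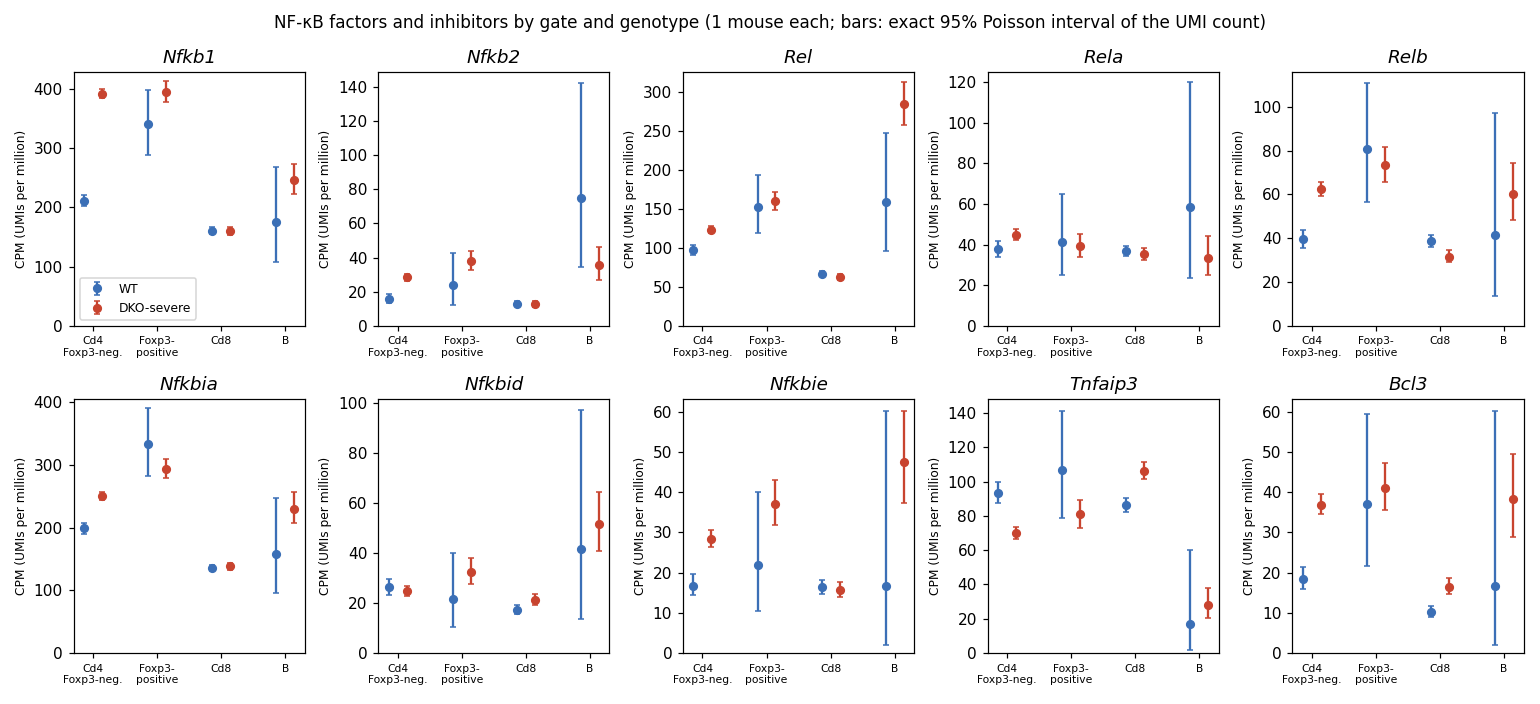
CPM (y axis, each panel on its own linear scale from 0) of the 10 genes in 4 gates (x axis) of WT (blue) and DKO-severe (red) cells, with exact 95% Poisson intervals. In Cd4 Foxp3-negative cells the red point of *Nfkb1* (392 CPM) reaches that of Foxp3-positive cells (395 CPM), whereas the Cd8 points sit at 160.4 CPM in WT cells, against 160.0 CPM in DKO-severe cells. The wide blue bars in the B gate come from 15 cells.

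Each member had its own order over the 8 combinations of gate and genotype. *Nfkb1* was highest in DKO-severe Foxp3-positive, DKO-severe Cd4 Foxp3-negative and WT Foxp3-positive cells, whose neighbouring intervals overlapped, then in DKO-severe B cells (246 CPM) and WT Cd4 Foxp3-negative cells. It was lowest in Cd8 cells of both genotypes. *Rel* was highest in DKO-severe B cells, apart from the next group, and both Cd4 Foxp3-negative groups were apart from those below them. *Relb* and *Nfkbia* were highest in Foxp3-positive cells of both genotypes, with DKO-severe Cd4 Foxp3-negative cells next. The levels of *Rela* ran from 33.5 to 58.3 CPM with overlap between every pair of neighbours in the order, and so did those of *Nfkb2* and *Nfkbid*. Groups farther apart in the order still differed: *Rela* of DKO-severe Cd4 Foxp3-negative cells was 0.35 above DKO-severe Cd8 cells on the log2 scale (lower bound 0.20). *Nfkbie* ran from 15.7 CPM in DKO-severe Cd8 cells to 47.6 CPM in DKO-severe B cells, and 1 step, from DKO-severe Foxp3-positive to DKO-severe Cd4 Foxp3-negative cells, was apart. *Bcl3* fell in 3 tiers when the WT B gate (2 UMIs) was left aside, with DKO-severe Cd4 Foxp3-negative, Foxp3-positive and DKO-severe B cells from 36.9 to 41.1 CPM, WT Cd4 Foxp3-negative and DKO-severe Cd8 cells from 16.5 to 18.4 CPM, and WT Cd8 cells at 10.3 CPM. *Tnfaip3* differed from the rest, with its highest levels in WT Foxp3-positive and DKO-severe Cd8 cells and its lowest, with the WT B gate (2 UMIs) left aside, in DKO-severe B cells.

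Compared within a mouse, the gap between Foxp3-positive and Foxp3-negative Cd4 cells was smaller in the DKO-severe mouse for *Nfkb1*. In WT, Foxp3-positive cells were above Foxp3-negative cells by 0.69 for *Nfkb1* (0.44 to 0.92), 1.03 for *Relb*, 1.01 for *Bcl3* and 0.75 for *Nfkbia* on the log2 scale. In DKO-severe cells the same differences were 0.01 (lower bound -0.06), 0.23, 0.16 and 0.23. Against Cd8 cells the gap grew: *Nfkb1* of Cd4 Foxp3-negative cells was above Cd8 cells by 0.40 in WT and by 1.29 in DKO-severe cells, *Relb* by 0.03 and 0.98, and *Nfkbie* by 0.04 and 0.85. *Tnfaip3* was 0.12 above Cd8 cells in WT and at -0.60 in DKO-severe cells. These differences between differences were not tested.

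Shares of cells with a transcript were taken after each cell was thinned at random to 3800 UMIs, since DKO-severe cells were deeper. Cells under that depth (688 WT and 476 DKO-severe) were left out. In Cd4 Foxp3-negative cells *Nfkb1* was detected in 595 of 1235 WT cells, 48.2% (exact binomial interval 45.4 to 51.0), and in 1260 of 1826 DKO-severe cells, 69.0% (66.8 to 71.1). Without thinning the shares were 59.3% and 85.9%. For scale, the B cell gene *Cd79a* gave a UMI in 0.857% of Cd8 cells from the WT mouse and in 0.633% of those from the DKO-severe mouse at equal depth, a level that free RNA or doublets can give, and the members' shares in Cd4 Foxp3-negative and Cd8 cells were all above it. The difference in *Nfkb1* did not rest on a few cells: the single richest cell held 0.776% of its UMIs in WT and 0.494% in DKO-severe cells.

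The other members followed their CPM. In that gate *Bcl3* gave a UMI in 6.07% of cells in WT (4.81 to 7.55) and in 12.1% in DKO-severe (10.6 to 13.7), *Nfkb2* in 5.43% and 8.82%, *Relb* in 12.6% and 18.8%, and *Nfkbie* in 5.99% and 9.91%. *Tnfaip3* was detected in 26.6% (24.2 to 29.2) and 22.1% (20.2 to 24.1). Without thinning, with DKO-severe cells deeper, its shares were 33.9% in WT and 37.2% in DKO-severe cells, the other direction. A cell of the gate held on average 1.96 of the 10 members in the WT and 2.43 in the DKO-severe mouse, and cells with none of them numbered 160 of 1235 and 114 of 1826. In Cd8 cells the average was 1.69 and 1.76 members. There *Nfkb1* was detected in 41.5% (39.7 to 43.3) and 43.5% (41.1 to 46.0), overlapping intervals, and *Tnfaip3* in 26.0% (24.4 to 27.6) and 30.3% (28.0 to 32.6). In Foxp3-positive cells at equal depth 24 WT and 93 DKO-severe cells remained, too few to compare shares. *Bcl3*, for instance, gave a UMI in 0 of these 24 WT cells (a count of 0 allows up to 12.5% by 3 counts, and 14.2% by the exact interval) and in 16 of 93 DKO-severe cells (17.2%, 10.2 to 26.4), overlapping intervals, while as deposited 11 of 64 WT and 111 of 331 DKO-severe cells had one.

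**Figure D3:**
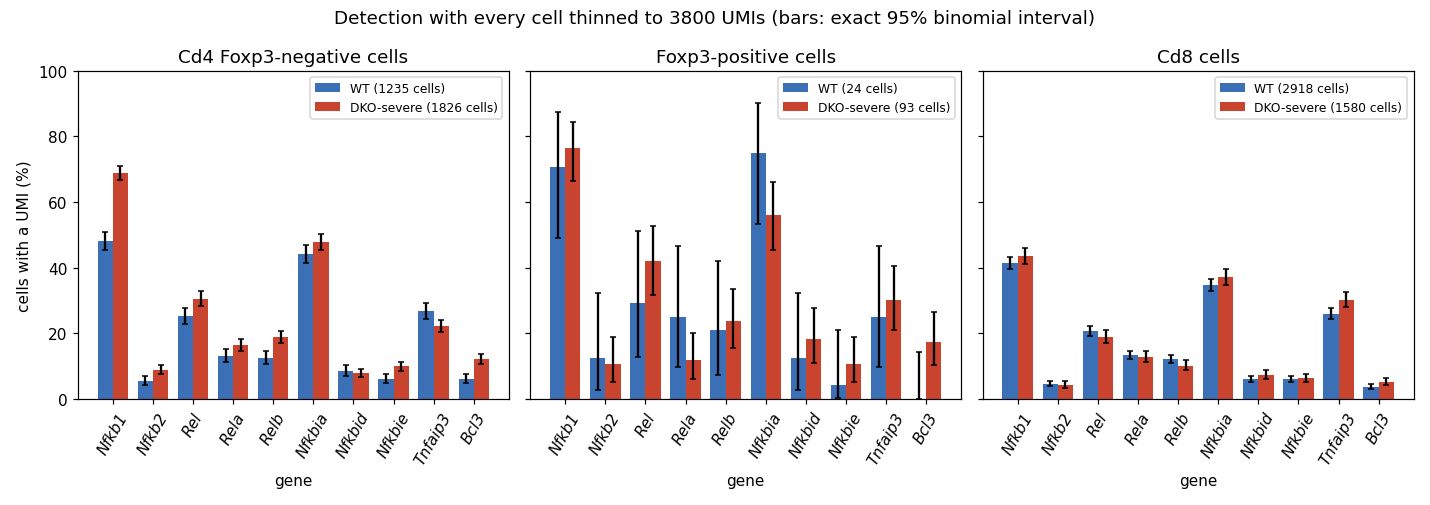
Percent of cells with a UMI of each gene (y axis) in the 3 T cell gates after thinning every cell to 3800 UMIs, for WT (blue) and DKO-severe (red), with exact 95% binomial intervals. In Cd4 Foxp3-negative cells the bars of *Nfkb1* stand at 48.2% and 69.0%, and in Cd8 cells at 41.5% and 43.5%.

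The Cd4 Foxp3-negative gate differed in make-up between the mice. Cells with a UMI of *Pdcd1* (PD-1, a receptor of activated and follicular helper T cells) made up 6.03% of it in WT and 44.7% in DKO-severe cells. Cells with neither a *Lef1* nor a *Ccr7* UMI, a pair of genes of resting T cells, made up 6.45% and 29.7%. The Cd8 gate shifted too, with such cells at 1.97% in WT and 13.8% in DKO-severe cells. A level in a whole gate therefore mixes which cells are present with how much each holds. The members were measured within these subsets, which were picked with results of these data known.

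The *Nfkb1* difference was also present among cells without a *Pdcd1* UMI, here called *Pdcd1*-negative. Such a cell can still express *Pdcd1*, and thinning can move more cells of that kind into the subset. The split therefore does not fully set the *Nfkb1* difference apart from the shift in *Pdcd1*-positive cells. In *Pdcd1*-negative cells *Nfkb1* was at 199 CPM in 1574 WT cells and at 357 CPM in 1330 DKO-severe cells, a log2 ratio of 0.84 (0.76 to 0.93). With subset and level both taken from cells thinned to 3800 UMIs it was 0.95 (0.83 to 1.07; 1184 and 1296 cells). *Bcl3* was at 17.7 and 33.3 CPM (0.91, 0.64 to 1.19), and *Nfkb2* was at 0.83, *Nfkbie* at 0.77 and *Relb* at 0.51. At equal depth these 4 were at 0.96, 0.64, 0.85 and 0.65, each with an interval above 0. *Tnfaip3* (93.5 and 79.8 CPM) differed by -0.23 (-0.37 to -0.09) on the log2 scale with all UMIs and by -0.16 (-0.35 to 0.04) at equal depth, so that its interval then included 0.

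The size of the *Nfkb1* ratio varied with a split by the genes of resting T cells. In cells with a *Lef1* or *Ccr7* UMI (1567 WT and 1691 DKO-severe cells) *Nfkb1* was at 206 CPM in the WT mouse and 397 CPM in the DKO-severe mouse, a log2 ratio of 0.95 (0.88 to 1.02), and at equal depth it was 1.00 (0.88 to 1.13). In cells with neither (108 and 716 cells) it was at 301.3 and 376 CPM, with a ratio of 0.32 (0.09 to 0.56). At equal depth it was 0.60 (0.33 to 0.88; 119 and 872 cells). The subsets at equal depth were taken anew from thinned cells, and a cell can lose its *Lef1* or *Ccr7* UMIs on thinning. The ratio of 0.60 is thus of another set of cells than that of 0.32. In cells with neither, on all UMIs, *Nfkb2*, *Rel*, *Rela*, *Relb*, *Nfkbia*, *Nfkbid*, *Nfkbie* and *Bcl3* all had intervals across 0. The higher whole-gate ratios of the family were thus not seen beyond counting error there except in *Nfkb1*. Few WT UMIs made some intervals wide: *Nfkb2* was at 0.72 (-0.15 to 1.75) on 11, and *Bcl3* at 0.44 (-0.25 to 1.21) on 18. In cells with a *Lef1* or *Ccr7* UMI *Bcl3* was at 0.96 (0.71 to 1.22), *Nfkb2* at 0.78, *Nfkbie* at 0.69 and *Relb* at 0.61, each with an interval above 0. *Tnfaip3* was at -0.40 (-0.53 to -0.27) in cells with a *Lef1* or *Ccr7* UMI, and at equal depth at -0.17 (-0.39 to 0.05). In cells with neither it was at -0.85 (-1.22 to -0.47), and at equal depth at -0.60 (-1.04 to -0.14). The ratio of *Tnfaip3* in the whole gate thus depended on which cells were taken. The difference between the subsets was not tested.

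In *Pdcd1*-positive cells the genotypes differed in other members. There *Nfkb1* was at 354 CPM in the 101 WT cells, against 422 CPM in the 1077 DKO-severe cells, a log2 ratio of 0.25 (0.08 to 0.44). At equal depth the ratio of *Nfkb1* was again 0.25, with an interval from -0.10 to 0.62 that included 0. *Rel* was lower, at 227 and 138 CPM (-0.71, -0.94 to -0.48), as was *Nfkbid*, the atypical inhibitor, at 53.0 and 28.6 CPM (-0.89, -1.36 to -0.38). *Tnfaip3* was at 94.1 and 61.4 CPM (-0.62, -0.97 to -0.24). At that depth, with 51 and 530 cells, *Rel* was at -0.53 (-0.99 to -0.03), *Tnfaip3* at -0.77 (-1.44 to -0.03) and *Nfkbid* at -0.51 (-1.47 to 0.61), so that the interval of *Nfkbid* then included 0. *Relb*, *Nfkb2* and *Nfkbie* had log2 ratios of -0.12, -0.20 and -0.03 in these cells, each with an interval across 0, unlike in the whole gate. *Bcl3* was at 26.5 and 40.0 CPM (0.59, -0.05 to 1.32), and at equal depth its ratio was 0.84 (-0.43 to 2.50). At equal depth *Nfkbie* was at -1.13 (-2.04 to -0.10), on 12 WT and 57 DKO-severe UMIs.

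**Figure D4:**
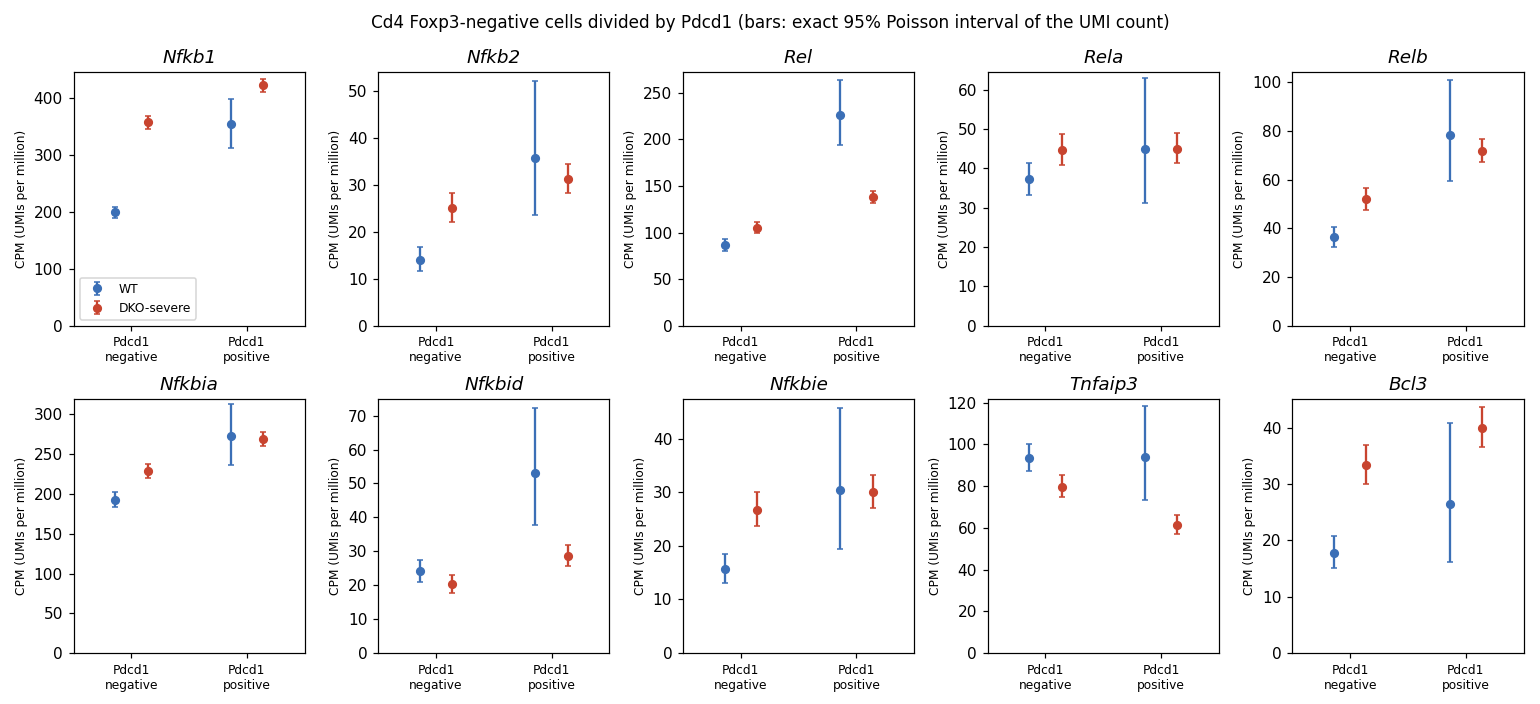
CPM (y axis, each panel on its own linear scale from 0) of the 10 genes in subsets of Cd4 Foxp3-negative cells (x axis: *Pdcd1*-negative and *Pdcd1*-positive), WT in blue and DKO-severe in red, with exact 95% Poisson intervals. *Nfkb1* lies at 199 and 354 CPM in the WT subsets and at 357 and 422 CPM in the DKO-severe subsets, and *Rel* in *Pdcd1*-positive cells is at 227 CPM in WT cells, against 138 CPM in DKO-severe cells.

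Within the WT mouse, *Pdcd1*-positive cells were above *Pdcd1*-negative cells by 0.83 for *Nfkb1* (0.64 to 1.02), 1.39 for *Rel* (1.14 to 1.63), 1.35 for *Nfkb2*, 1.10 for *Relb* and 1.14 for *Nfkbid* on the log2 scale. *Tnfaip3* was at 0.01. Within the DKO-severe mouse, the same differences were smaller, at 0.24, 0.39, 0.32, 0.47 and 0.50, and *Tnfaip3* was at -0.38.

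Genes of the rest of the pathway were described in the same gate with 5 lists, of which *Birc3*, *Traf1* and *Nfkbiz* each stand in a pair of lists. Of 25 genes of IKK, its adaptors and the NIK arm, 21 passed the filter, 2 were 1.5-fold or more higher and 3 lower, and the median log2 ratio was 0.14. Over all genes past the filter 15.9% were higher and 7.09% lower, with a median of 0.10, so the share of this list that was higher lay under that of all genes and its median near theirs. *Malt1*, a protease that acts between the T cell receptor and IKK, was at 163 CPM in WT cells, against 433 CPM in DKO-severe cells (1.41, 1.33 to 1.49). *Bcl10*, an adaptor on the same route, was at 0.47, under 1.5-fold. *Traf1*, an adaptor of TNF family receptors, was at 0.69. *Traf5* was at -0.94, *Ikbkb* (IKKβ) at -0.71 and *Prkcq* (the kinase PKCθ, which acts below the T cell receptor) at -0.65. *Map3k14* (NIK) was at 43.1 and 33.5 CPM (-0.36), while its substrate gene *Nfkb2* was higher.

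Among 16 other inhibitors and deubiquitinases 14 passed, 4 were higher and 0 lower, with a median of 0.08. Over all genes past the filter 15.9% were higher and 7.09% lower, with a median of 0.10. *Tnip3*, a partner of A20, rested on 22 UMIs in the WT gate against 1250 in the DKO-severe gate (2.25 and 53.8 CPM, log2 ratio 4.58). *Otud7b*, a deubiquitinase, was at 1.18, *N4bp1* at 0.96 and *Nfkbib* (IκBβ) at 0.59. *Zc3h12a*, *Tax1bp1*, *Otulin* and *Itch* lay between -0.24 and -0.16.

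The receptors upstream had the highest median of the 5 lists. Of 16 receptors 8 passed, 5 were higher and 1 lower, and their median log2 ratio was 1.22. The shares over all genes past the filter were 15.9% and 7.09%, with a median of 0.10. *Tnfrsf4* (OX40) was at 69.4 CPM in WT cells, against 439 CPM in DKO-severe cells (2.66), *Tnfrsf9* (4-1BB) at 23.8 and 114 CPM (2.26), *Tnfrsf1b* (TNF receptor 2) at 21.6 and 71.5 CPM (1.73) and *Tnfrsf18* (GITR) at 75.5 and 221 CPM (1.55). These costimulatory receptors are characteristic of activated and regulatory T cells, and all 4 signal to NF-κB. *Cd28* was at 0.36, *Tnfrsf13b* at 0.90, *Cd27* at -0.40 and *Il18r1* at -0.83.

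Of 30 textbook target genes 20 passed, with 9 higher, 3 lower and a median of 0.28, against 15.9%, 7.09% and 0.10 over all genes past the filter. The chemokine genes led: *Ccl3* had 40 WT and 6804 DKO-severe UMIs (log2 ratio 6.16), *Ccl4* was at 5.67 and *Ccl5* at 3.55. *Bcl2a1d*, a survival gene with near-identical copies among which reads cannot be assigned surely, was at 2.72. *Myc* was at -0.79, *Ltb* at -0.75, *Irf1* at -0.65 and *Cflar* at -0.43. Textbook targets thus lay on both sides of 0 in the same gate. The monocyte and granulocyte markers given above were also higher in this gate, and their part in the chemokine ratios was not tested. In Cd8 cells, 4 of 13 targets past the filter were higher and 1 was lower, with a median of -0.05. Of the IKK list 0 of 20 were past 1.5-fold there. Over all genes past the filter in Cd8 cells 3.78% were higher and 2.58% lower, with a median of -0.01.

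A list of 15 immediate early genes, which respond within minutes and also to cell handling, was taken because *Nfkbia* and *Tnfaip3* respond in the same way. In Cd4 Foxp3-negative cells 11 passed, 2 were higher and 1 lower, shares near those of all genes (15.9% and 7.09%), with a median of 0.40 against 0.10. *Fosb* was at 0.77, *Egr1* at 0.63, *Fos* at 0.55 and *Ier5* at 0.45, whereas *Jun* was at -0.88 and *Zfp36* at -0.26, and *Junb* and *Ier2* were at 0.04 and 0.03. The heat shock genes *Hspa1a* (1 WT and 97 DKO-severe UMIs) and *Hspa1b* (6 and 192), near-identical copies between which reads cannot be assigned surely, lay under the filter and are named after their values were seen. Their part in the levels of the members was not tested.

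**Figure D5:**
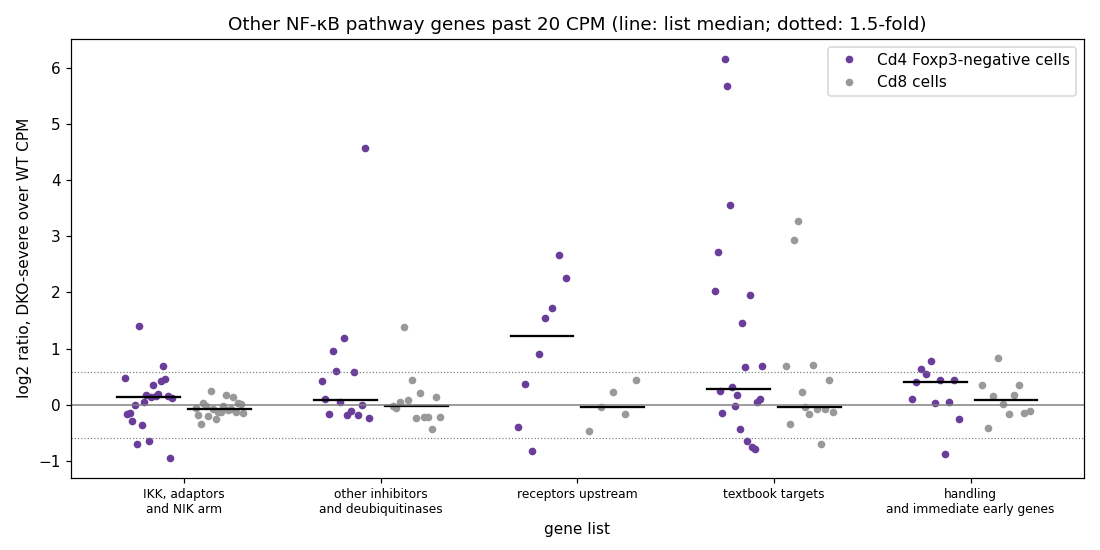
Log2 ratio of DKO-severe over WT CPM (y axis) for the genes of 5 pathway lists (x axis) that passed a mean of 20 CPM, in Cd4 Foxp3-negative (purple) and Cd8 cells (grey). Each point is 1 gene, black lines are list medians and dotted lines mark 1.5-fold. The receptor list has medians of 1.22 in Cd4 Foxp3-negative cells and -0.04 in Cd8 cells.

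The gene whose log2 level most closely followed that of a member over the 8 combinations of gate and genotype, among 6324 genes, was *Arid5b* for *Nfkb1* (Pearson r 0.986), *Fam98b* for *Nfkb2* (0.994), *Snrpa1* for *Relb* (0.972) and *Rexo2* for *Rela* (0.986). Among the IκB family genes it was *Otub1* for *Nfkbia* (0.975), *Lgmn* for *Nfkbid* (0.982), *Phf5a* for *Nfkbie* (0.987) and *Kcnq5* for *Bcl3* (0.991). For *Tnfaip3* it was *Sept1* (0.995). These are descriptions over 8 points that share 2 mice and 1 library, 1 of them a group of 15 cells, and the best of so many genes is high by selection.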

How the data were processed

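Per the labels and the study's methods, TCRβ+ cells of 1 WT (Hashtag 1) and 1 DKO-severe mouse (Hashtag 2) were run with a 10x Genomics 3′ v3.1 kit. The authors made UMI counts per gene and cell with Cell Ranger 7.1.0 and mm10, deposited as 1 unnormalized matrix per genotype. Seurat is also named in the submitters' processing notes. Whether intronic reads were counted, and the annotation release, are not given in the sources used here. The matrices held 7189 WT barcodes (45294779 UMIs) and 7161 DKO-severe barcodes (69692053 UMIs). Their genotype follows the hashtag counts (medians 1973 and 110 for WT, 36 and 4726 for DKO-severe), and 3 WT barcodes with the other hashtag were left out.

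Barcodes needed 500 or more genes and no more than 10% mitochondrial UMIs. Scrublet (scanpy 1.11.5) marked 0 doublets by its own threshold, so the highest 6% of scores per matrix were removed. The UMIs of all cells in a gate were added and scaled to 1000000 (CPM). The log2 ratio is DKO-severe over WT, with an exact conditional 95% interval and fewer than 3 UMIs counted as 3. A gene counted as higher or lower at 1.5-fold or more and a mean of 20 or more CPM. Poisson and binomial (Clopper-Pearson) intervals are exact. The scripts were tested on simulated data. Gates were reapplied to thinned cells for shares. Member coordinates are from GENCODE for GRCm38.

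The text names all 10 members, the 4 highest and the 4 lowest ratios of each pathway list in Cd4 Foxp3-negative cells, the gene most like each member, and marker genes. The gene most like *Rel* and a planned split of cells are not reported here, and cells were split by *Lef1* and *Ccr7* after the data were seen. The members, lists and subsets were chosen with earlier results of these data known. *Tet2* and *Tet3* are given as the targeted genes. With 1 mouse per genotype, no p-value was computed.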

Additional observations from a re-analysis of the deposited data

Results flagged for a closer look

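*Tnfaip3* and *Relb* were picked out because their genotype ratios pointed in opposite directions in the 2 large T cell gates, with counting intervals off 0 on both sides. *Tnfaip3* had a log2 ratio of DKO-severe over WT CPM of -0.42 in Cd4 Foxp3-negative cells and 0.30 in Cd8 cells. In cells with a *Lef1* or *Ccr7* UMI at equal depth it was at -0.17 (-0.39 to 0.05) and 0.33 (0.17 to 0.49), so that the first interval then included 0. In cells with neither at equal depth it was at -0.60 (-1.04 to -0.14) and 0.12 (-0.29 to 0.55). There the second interval included 0. *Relb* ran the other way, at 0.66 in Cd4 Foxp3-negative cells and -0.29 in Cd8 cells. In cells with a *Lef1* or *Ccr7* UMI at equal depth *Relb* was at 0.64 (0.33 to 0.96) and -0.51 (-0.81 to -0.21). In cells with neither at equal depth it was at 0.17 (-0.41 to 0.80) and -0.07 (-0.76 to 0.65). Both of these intervals included 0, so the opposite directions of *Relb* were not seen beyond counting error there. The subsets at equal depth were taken from thinned cells. Both gates come from the same 1 mouse per genotype, and the difference between the gates was not tested.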

How the results depend on the processing

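With 1 mouse and 1 mRNA library per comparison, differences between genotypes cannot be told apart from differences between these 2 mice, and depth limits the WT Foxp3-positive (64 cells) and WT B (15 cells) gates most. No paired analysis was possible because there was 1 mouse per genotype. In Cd4 Foxp3-negative cells, over 9 alternatives for the whole gate (equal weight per cell, another total, centring, a pseudocount of 5 CPM, thinned cells, gates of 2 or more UMIs, doublet removal and cells with other lineages' markers), *Nfkb1* ranged from 0.73 to 0.97, *Bcl3* from 0.73 to 1.19, *Relb* from 0.50 to 0.71 and *Tnfaip3* from -0.58 to -0.26, each on the log2 scale. The lowest of these values for *Relb* came with another total and lay under the 1.5-fold line. The count of 5 higher members in that gate thus depended on the total used. In Cd8 cells *Tnfaip3* ranged from 0.28 to 0.40 and *Relb* from -0.37 to -0.26. With a filter of 50 CPM, 2 members were higher in Cd4 Foxp3-negative cells and 0 in Foxp3-positive cells, since fewer genes are then counted. In Foxp3-positive cells 1 member was higher, in place of 2, with immunoglobulin, haemoglobin, mitochondrial and ribosomal protein genes left out of the total, with the pseudocount, with thinned cells and with gates of 2 or more UMIs. The last 2 of these gave 1 and 5 members lower there. In Cd8 cells 1 was higher with that other total and 1 with no filter on level. The shares of all genes past 1.5-fold at these settings are not given here, so these counts cannot be read as results about the members. *Nfkbie* in Foxp3-positive cells turned to -0.22 with thinned cells. In the B gate *Bcl3* turned from 0.61 to -0.025 with thinned cells, *Rela* from -0.80 to 0.055 with no condition on *Cd3*, and *Tnfaip3* from 0.17 to -0.96 and -0.78 with these 2 alternatives, *Bcl3* and *Tnfaip3* on 2 WT UMIs each. In *Pdcd1*-positive Cd4 Foxp3-negative cells, a subset added after seeing the data, *Nfkb2*, *Relb* and *Nfkbie* turned to -0.20, -0.12 and -0.025, and at equal depth *Relb* and *Nfkbie* to -0.015 and -1.13. *Rel*, *Nfkbia* and *Rela*, under 1.5-fold in the whole gate, turned to -0.71, -0.02 and -0.002 in that subset. At equal depth these 3 were at -0.53, 0.19 and -0.12. In cells with neither *Lef1* nor *Ccr7*, a split also added later, *Nfkbie* turned to -0.023 at equal depth. The cause of these turns was not tested.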
